A study of Mus musculus with 26 samples.

Results

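The numbered zinc finger protein genes of the mouse are those whose symbol is Zfp followed by digits alone. On chromosomes 1 to 19 and X, 364 of 21517 protein-coding genes (1.69%) met that rule, after 3 such symbols had been left out by it, and their positions were set against the domain boundaries of embryonic stem cells (ESCs) in the G1 phase. The boundaries came from Micro-C, which maps contacts along chromosomes after digestion with micrococcal nuclease and ligation. The study made 26 libraries from a C57BL/6J line, derived from Bruce-4 cells, in which the cohesin subunit RAD21 carries a tag for degradation (dTAG). ESCs received 500 nM dTAG (6 libraries), 20 µM A485, which blocks the histone acetyltransferases CBP and p300 (6 libraries), or 0.05% v/v DMSO (6 libraries). Epiblast-like cells received dTAG (4 libraries) or DMSO (4 libraries). Only the DMSO-treated ESCs, which carry the tagged RAD21 as well, are described here: their pooled libraries gave 1 list of 3515 boundaries, each 25 kb long, while the remaining 4 groups are not analysed here. The list has no score and no value per library, so no result below has a replicate error, and its contact depth is unknown.

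Most Zfp genes encode proteins with an array of C2H2 fingers, short loops that fold round a zinc ion and read DNA. Many carry a KRAB domain, through which the corepressor TRIM28 brings histone methylation to the bound site, and these are known in ESCs for silencing endogenous retroviruses and for keeping the methylation of imprinted genes. The family has grown by tandem duplication, so that its genes stand in arrays. The symbol is not a strict guide to the fold, since Zfp36 encodes a CCCH protein that binds RNA and Zfp185 a LIM domain protein. Domain boundaries are the positions that limit contacts between neighbouring stretches of a chromosome, where loop extrusion by cohesin is often halted by CTCF.

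A RefSeq promoter window (GRCm38.p6, the build also called mm10) was found for 302 of the 364 genes, and 20 of these 302 (6.62%) had the start of the gene, by its outer end, inside a boundary, where 7.05% of all protein-coding genes with a strand had theirs. The 250 bases before the start that the promoter window gives are shown for 6 genes that return below. That start can lie inside the gene, as for Zfp341, with 154613368 against an outer end at 154611816. The window starts of Zfp260 and Zfp334 also lie inside their genes. Zfp566 and Zfp260 face away from each other inside 1 boundary, and Zfp748 and Zfp54 stand at boundaries that divide large arrays. Zfp341 and Zfp334 hold matches to the cores of the CTCF and NRF1 motifs. All run 5′ to 3′ on the strand of the gene, and capitals mark the motifs that were searched for.
Zfp566, chr7:30090511-30090760, minus strand: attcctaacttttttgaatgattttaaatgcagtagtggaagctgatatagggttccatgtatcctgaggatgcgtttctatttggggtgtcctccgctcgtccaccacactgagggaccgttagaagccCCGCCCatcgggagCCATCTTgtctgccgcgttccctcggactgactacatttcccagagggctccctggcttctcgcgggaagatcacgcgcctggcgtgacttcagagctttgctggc
Zfp260, chr7:30094826-30095075, plus strand: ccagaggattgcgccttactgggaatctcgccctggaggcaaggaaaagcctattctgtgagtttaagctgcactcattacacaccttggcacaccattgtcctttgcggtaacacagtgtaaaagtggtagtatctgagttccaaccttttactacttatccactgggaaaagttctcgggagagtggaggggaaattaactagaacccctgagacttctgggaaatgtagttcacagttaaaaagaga
Zfp748, chr13:67553153-67553402, minus strand: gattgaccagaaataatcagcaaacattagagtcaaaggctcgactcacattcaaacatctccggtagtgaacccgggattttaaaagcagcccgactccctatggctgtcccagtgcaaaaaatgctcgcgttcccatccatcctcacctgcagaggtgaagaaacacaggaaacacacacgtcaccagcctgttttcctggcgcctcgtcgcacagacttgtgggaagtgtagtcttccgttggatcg
Zfp54, chr17:21422977-21423226, plus strand: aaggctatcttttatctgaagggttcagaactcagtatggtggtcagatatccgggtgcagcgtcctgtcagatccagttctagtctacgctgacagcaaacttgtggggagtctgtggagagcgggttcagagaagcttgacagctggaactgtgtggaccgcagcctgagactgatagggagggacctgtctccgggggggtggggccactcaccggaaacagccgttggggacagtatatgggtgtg
Zfp341, chr2:154613118-154613367, plus strand: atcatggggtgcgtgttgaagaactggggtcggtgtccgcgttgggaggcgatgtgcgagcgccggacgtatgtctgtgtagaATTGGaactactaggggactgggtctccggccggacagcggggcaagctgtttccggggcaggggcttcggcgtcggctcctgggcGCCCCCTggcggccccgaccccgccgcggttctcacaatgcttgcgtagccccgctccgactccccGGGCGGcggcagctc
Zfp334, chr2:165388260-165388509, minus strand: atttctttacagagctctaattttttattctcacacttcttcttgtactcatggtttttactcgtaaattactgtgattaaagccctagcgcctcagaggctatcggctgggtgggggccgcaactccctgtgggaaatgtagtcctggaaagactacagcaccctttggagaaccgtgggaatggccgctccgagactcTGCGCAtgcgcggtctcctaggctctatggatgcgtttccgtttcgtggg

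Motifs were searched on both strands of the 300-base windows, which also hold 50 bases after the start. Capitals mark a GC box (GGGCGG) in Zfp566 and Zfp341, a YY1 core (AAGATGG, on the opposite strand) in Zfp566, a CCAAT box (CCAAT) and a CTCF core (AGGGGGC, on the opposite strand) in Zfp341, and an NRF1 core (TGCGCA, which reads alike on both strands) in Zfp334. The 250 bases shown for Zfp260, Zfp748 and Zfp54 held none of the motifs searched. A CCAAT box read on the opposite strand can overlap a GC box by its final bases. CCAAT boxes were in 48.1% of the 364 windows of Zfp genes, where some genes have several overlapping windows, against 38.5% of all 21044 windows of protein-coding genes. ETS sites (CCGGAAG) were in 22.3% against 11.7%, TATA boxes (TATAAA) in 7.14% against 12.7%, and GC boxes in 44.0% against 46.7%. NRF1 cores were in 10.99% against 9.74%, YY1 cores in 8.52% against 6.28% and CTCF cores in 10.2% against 13.04%. The order for CTCF depended on the letters: with CC required 3 bases before the core, the form searched first, the shares were 2.47% against 1.64%. Of the 24 windows of Zfp genes that began inside a boundary, 10 held a CCAAT box (41.7%), 9 a GC box (37.5%) and 3 an ETS site (12.5%). TATA boxes were in 2 (8.33%), NRF1 cores in 4 (16.7%), YY1 cores in 4 (16.7%) and CTCF cores in 3 (12.5%). In the 1404 windows of other protein-coding genes that began inside a boundary, the shares in the same order were 37.7%, 56.6%, 19.5%, 9.05%, 14.7%, 8.19% and 14.7%. The 24 windows had a median of 15 CpG and 54.3% GC, and the 1404 had 18 CpG and 59.0% GC. The 340 windows of Zfp genes that began elsewhere had 14 CpG and 54.5% GC. A match is a run of letters, not a site shown to be bound, and none of these shares was tested.

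The genes were unevenly spread, with 162 of the 364 on 3 chromosomes. Chromosome 7 held 89, chromosome 17 held 41 and chromosome 13 held 32, whereas chromosome 19 held 2. Members up to 500 kb apart were linked into runs, whatever other genes lay between, and runs of at least 3 were called clusters. This gave 33 clusters with 224 members (61.5%), 14 pairs and 112 members that stood alone. Chromosome 7 alone had 9 clusters with 77 members. The 9 clusters with at least 9 members held 127 genes in all, and the most populous was that from Zfp160 to Zfp13 on chromosome 17, with 23 genes over 2591 kb. Median gene length was 18.2 kb for Zfp genes and 17.4 kb for the other protein-coding genes. The spread was narrower for Zfp genes, with quartiles of 12.2 and 29.0 kb against 5.77 and 45.6 kb.

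**Figure D1:**
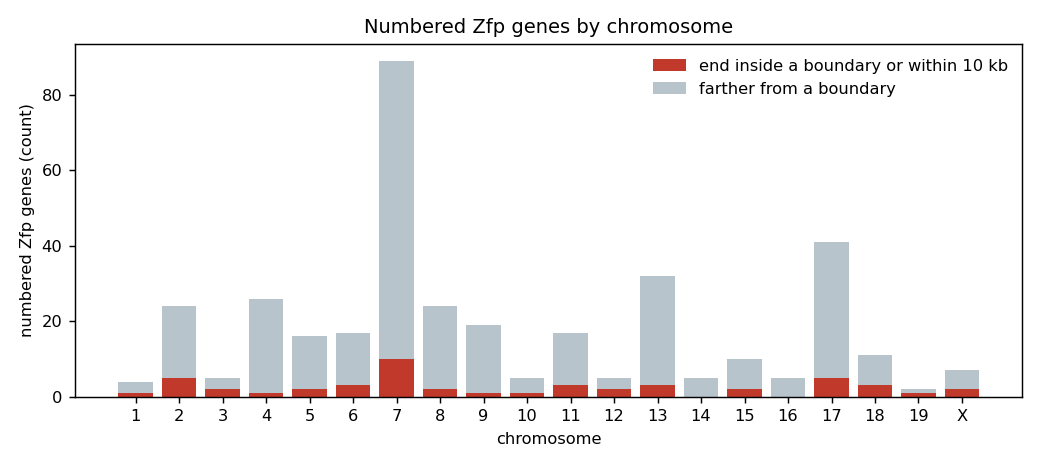
Number of numbered Zfp genes on each chromosome (bars), split into those with an end inside a boundary or within 10 kb of one (red, at the base) and those farther away (grey). Chromosome 7 stands highest at 89 genes, 10 of them near a boundary.

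The share of Zfp genes near a boundary lay below that of protein-coding genes at large, and within the family it was lower for the clustered genes than for the rest. A gene was counted as near when either end lay inside the 25 kb interval or within 10 kb of it. This held for 49 of the 364 Zfp genes, or 13.5% (exact 95% binomial interval 10.1 to 17.4), where 18.3% of all protein-coding genes met the same rule. In clusters 24 of 224 were near (10.7%, interval 6.99 to 15.5), and outside clusters 25 of 140 (17.9%, interval 11.9 to 25.2), a share next to that of all protein-coding genes. Members of 1 cluster share their neighbourhood, so these intervals, which cover counting error only, are narrower than independent loci would give, and the differences were not tested. An end inside the interval itself was found for 34 Zfp genes (9.34%), where 11.7% of all protein-coding genes had one. Within 50 kb there were 111 (30.5%), against a share of 35.6% of all. The median distance to a boundary was 119 kb for Zfp genes and 98.6 kb for other protein-coding genes. The binomial interval of the Zfp median, 98.2 to 140.9 kb, includes the value for other genes. Within the family the median was 135 kb in clusters and 93.8 kb outside them. The order was turned on the chromosomes with the most Zfp genes, with medians of 121 kb for Zfp genes and 138 kb for other genes on chromosome 7, and of 119.1 kb and 121.3 kb on chromosome 17. On chromosome 13 the medians were 182 kb for Zfp genes and 74.1 kb for other genes, and on chromosome 4 they were 200.05 kb and 91.04 kb.

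**Figure D2:**
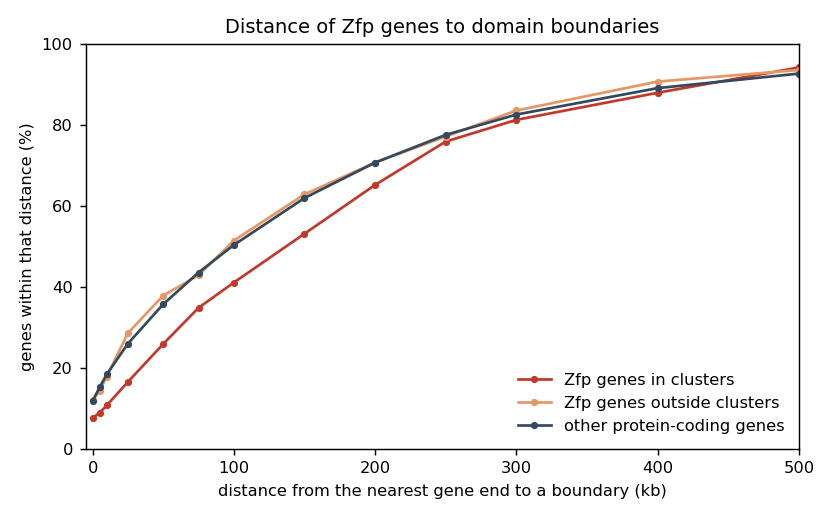
Share of genes (%) whose nearest end lies within a given distance (kb) of a boundary, for Zfp genes in clusters (red), Zfp genes outside clusters (orange) and other protein-coding genes (dark blue). The red line runs below the others up to 400 kb and above them at 500 kb, with 25.9% of clustered Zfp genes within 50 kb, against 37.9% of Zfp genes outside clusters and 35.7% of other genes.

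The counts were also split by the size of the cluster. Near a boundary were 11 of 127 genes in clusters of at least 9 members (8.66%), 13 of 97 in clusters of 3 to 8 (13.4%), 6 of 28 in pairs (21.4%) and 19 of 112 that stood alone (16.96%), with intervals that overlap throughout. By position within the cluster, 8 of 66 outer genes (12.1%) and 16 of 158 inner genes (10.1%) were near, with median distances of 120 kb and 141 kb. The order varied by chromosome: the share of Zfp genes was below that of other genes on 12 chromosomes, which hold 289 of the 364, and above it on 8, which hold 75. On the lower side, 1 of 26 Zfp genes was near on chromosome 4, against 253 of 1275 other genes (19.8%), and 3 of 32 on chromosome 13, against 186 of 797 (23.3%). Chromosome 7, with 10 of 89 (11.2%) against 279 of 1936 (14.4%), was closer. On the higher side, 5 of 24 were near on chromosome 2 (20.8%), against 317 of 1758 other genes (18.03%), and 2 of 7 on chromosome X, against 121 of 956 (12.7%). On chromosomes 14 and 16 none of the 5 and 5 genes was near, counts at which a share such as 18.3% could go unseen. Among the 3 genes just inside the limit, Zfp687, Zfp449 and Zfp110 lay 9.05, 9.33 and 9.76 kb from a boundary, and the 3 just outside, Zfp800, Zfp553 and Zfp239, lay at 10.5, 11.8 and 12.02 kb.

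Either end of a Zfp gene could be the one at the boundary. Of the 302 genes with a known strand, 32 had the start near (10.6%), where 12.2% of protein-coding genes had theirs, and 28 had the 3′ end near (9.27%), where 12.6% had theirs. The 3′ end was inside a boundary in 20 (6.62%), where 7.2% of protein-coding genes with a strand had theirs there. Among the 41 near genes with a strand, the start alone was near in 13 (31.7%), the 3′ end alone in 9 (21.95%) and both ends in 19 (46.3%). For 3088 other near genes the shares in the same order were 30.7%, 32.6% and 36.7%. The median length of near Zfp genes was 15.8 kb, against 19.3 kb for Zfp genes farther away, although the lower quartile was higher for the near genes. Whether gene length accounts for the share with both ends near was not tested.

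Boundaries fell within 17 of the 33 clusters, and 15 clusters lay wholly in 1 domain. A domain here runs from one boundary to the next, and a gene belongs to the domain that holds its midpoint. The 33 clusters covered 18.8 Mb and held 22 boundary midpoints, 1.17 per Mb, against 1.37 per Mb over the annotated span of the 20 chromosomes. Clusters with a boundary inside spanned 68.1 to 2591 kb (median 537 kb), and the 16 without one spanned 58.8 to 1145 kb (median 259 kb). Of the 9 clusters with at least 9 members, 8 held a boundary, 12 in all. An end of a Zfp gene lay inside 12 of the 22 boundaries, while 4 held ends of other protein-coding genes only and 6 held no protein-coding gene end. No like counts over all 3515 boundaries are given here.

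**Figure D3:**
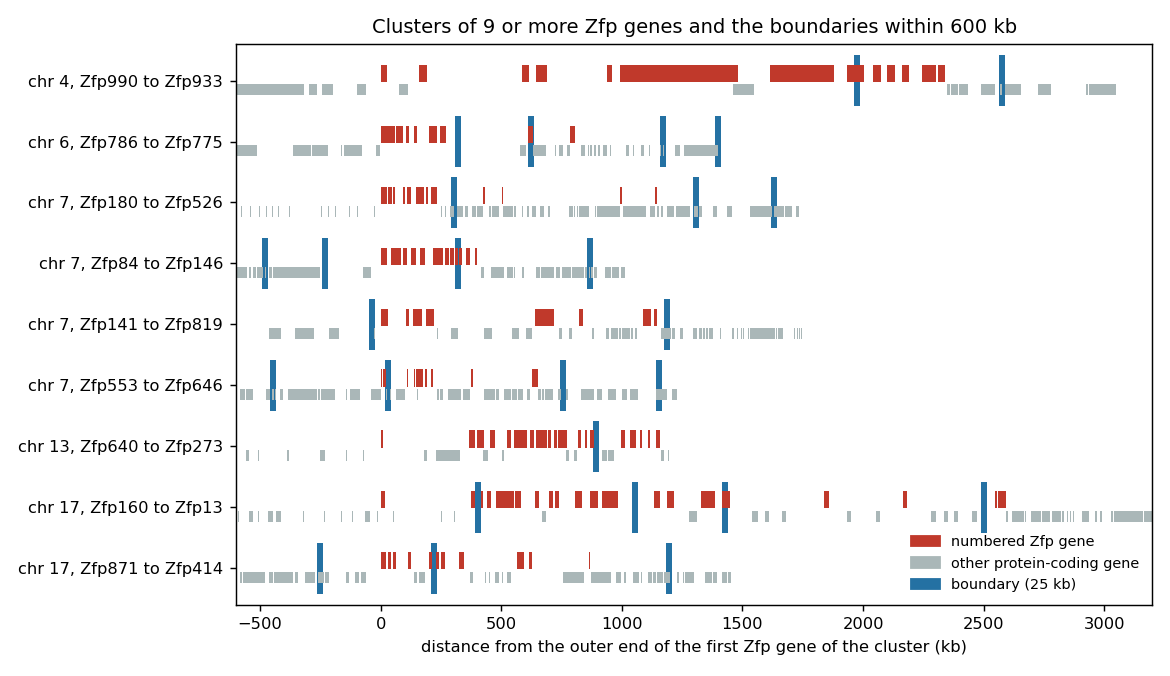
The 9 clusters with at least 9 Zfp genes, each drawn from the outer end of its first gene (0 kb) with 600 kb on either side. Red bars are Zfp genes, grey bars other protein-coding genes and blue bars the 25 kb boundaries, and the chromosome 7 array from Zfp141 to Zfp819 is the row with no boundary inside.

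On chromosome 17 the array from Zfp160 to Zfp13 was cut by 4 boundaries, at 21400001, 22050001, 22425001 and 23500001. Between the boundaries at 21400001 and 22050001 lay a 625 kb domain in which 12 of 13 protein-coding genes were numbered Zfp genes, from Zfp54 to Zfp943, the highest such share among domains with at least 3 of them (92.3%). The next domain, 350 kb long, held Zfp947, Zfp994, Zfp944 and Zfp758 among 5 protein-coding genes. On either side of these domains the company changed. The 1275 kb domain before them held Zfp160 and Zfp677 among 26 protein-coding genes, most of the others vomeronasal receptor genes such as Vmn2r105 and Vmn1r224. The 1050 kb domain after them held Zfp945 and Zfp40 among 11, with Vmn2r111 and other Vmn2r genes. The start of Zfp54 lay inside the boundary at 21400001, and the 3′ end of Zfp677 lay 0.736 kb outside it. Zfp946, 32.5 kb long, spanned the whole boundary at 22425001. A further array on chromosome 17, from Zfp871 to Zfp414, was divided by a boundary at 32975001 that held an end of Zfp472 and an end of Zfp952, with 5 genes of the array before it and 5 after it, and the midpoint of Zfp952 inside.

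On chromosome 7, 11 of the 15 genes from Zfp84 to Zfp146 shared a 525 kb domain with only 2 other protein-coding genes, Catsperg2 and Gm45978. Among them was Zfp568, which in mouse represses a placental transcript of Igf2 and lay 46.7 kb from a boundary. The domain closed at the boundary at 30075001, beside which 3 Zfp genes stood, more than at any other boundary near a Zfp gene. By their outer ends, Zfp566 and Zfp260 both had their starts inside it, 4.27 kb apart and on opposite strands, and Zfp82 lay 2.18 kb away. Their promoters are the first shown above, and those 250 bases held 14 CpG for Zfp566 and 4 for Zfp260. Elsewhere on the chromosome the arrays shared their domains with other families. Zfp180 to Zfp94, 10 genes, lay with Zfp296 in a 5225 kb domain of 160 protein-coding genes that also held a large vomeronasal receptor array, and the boundary at 24375001, with ends of Kcnn4 and Smg9, separated them from Zfp428 and 3 further genes. The 9 genes from Zfp141 to Zfp819 had no boundary among them and lay in 1 domain of 1200 kb, whose edges lay 23.4 and 31.7 kb from the outer genes. Smaller arrays such as the 6 genes from Zfp628 to Zfp580, the 6 from Zfp787 to Zfp28 and the 4 from Zfp954 to Zfp772 each lay in 1 domain too. In the array from Zfp551 to Zfp446 the boundary at 12800001 held Zfp329 whole, with Zfp110 9.76 kb beyond it. The boundary at 127250001 held an end of Zfp771 with ends of Dctpp1 and Sephs2, and left 8 genes from Zfp768 to Zfp646 in a domain of 700.0 kb.

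The chromosome 13 array, from Zfp640 to Zfp273, held 20 genes in 1157 kb, among them Zfp708, which in mouse binds a class of retroviral repeats. It was divided once, at 67550001, where the start of Zfp748 lay inside the boundary. Before that boundary 15 genes of the array, with Zfp369, lay in a 2400 kb domain of 39 protein-coding genes, which was the domain with the most numbered Zfp genes. This domain also held Rsl1, a KRAB zinc finger gene named for its control of sex-biased liver genes, and 42 pseudogenes. The other 5, from Zfp738 to Zfp273, lay in the 1000 kb domain after it. On chromosome 4 the array from Zfp990 to Zfp933 spread 16 genes over 2338 kb and had 1 boundary, at 147475001, or 0.428 per Mb. The boundary lay inside Zfp982, with 10 genes before it and 5 after it, and no protein-coding gene ended in it. None of the 16 genes was near a boundary by the rule on gene ends, and the array held 52 pseudogenes. Zfp600, in its middle, lay 1257 kb from the nearest boundary, and Zfp987, Zfp992 and Zfp981 lay 1197, 1006 and 936 kb away.

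At the end of chromosome 2 a 3500 kb domain held 9 numbered Zfp genes, including the 2 genes farthest from any boundary, Zfp973 at 1719 kb and Zfp967 at 1621 kb. Of its 34 protein-coding genes, many others carry only Gm numbers. Zfp966 lay 1018 kb away in the same domain. In all, 22 of the 364 genes (6.04%) were over 500 kb from a boundary, where 7.29% of all protein-coding genes were. On chromosome 6, 7 genes from Zfp786 to Zfp746 lay in a 3075 kb domain that Ezh2, the methyltransferase of Polycomb, shared, and the boundary at 48125001 separated them from Zfp467 and Zfp775. The boundary at 48425001 held Zfp467 whole, with an end of Sspo. On chromosome 9 the boundary at 20425001 held an end of Zfp26 and separated Zfp560, in a 1625 kb domain with olfactory receptor genes, from Zfp426, Zfp266 and Zfp846. On chromosome 10 the boundary at 82200001 held the 3′ end of Zfp938 and set it apart from Zfp433, Zfp781 and Zfp873. On chromosome 18 both Zfp35 and Zfp24 had an end inside the boundary at 24000001.

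**Figure D4:**
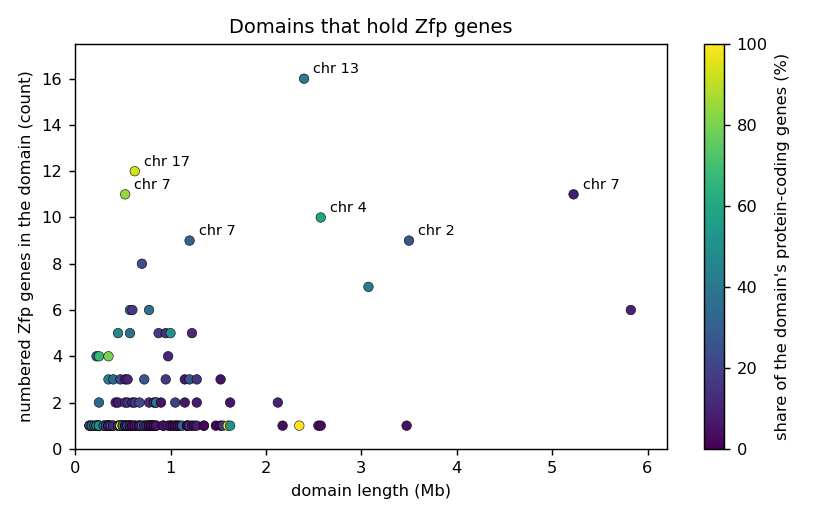
Number of numbered Zfp genes in each of the 160 domains that hold at least 1, against the domain's length (Mb), with colour giving their share of the domain's protein-coding genes (%). The 625 kb domain on chromosome 17 (12 genes) and the 525 kb domain on chromosome 7 (11 genes) combine a short length with shares of 92.3% and 84.6%.

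Across the chromosomes, 340 of the 364 genes (93.4%) had their midpoint in a domain, where 91.8% of all protein-coding genes did, 21 had it in a boundary and 3 lay beyond the outermost boundaries. Of the 364, 232 (63.7%) shared a domain with another numbered Zfp gene. No like share was computed for other gene families. By distance alone, 224 of the 364 had been linked into clusters, so the count is not a result about domains as such. The 340 were spread over 160 of the 3495 domains, of which 108 held a single Zfp gene, 19 held at least 5 and 5 held at least 10. Those 5 domains contained 60 of the genes. Taken once per gene, the length of the domain around it had a median of 775 kb for Zfp genes and 675 kb for other protein-coding genes. A domain with several Zfp genes counts several times in this median, which therefore does not compare the domains themselves. Of the 14 pairs, 10 lay in 1 domain, and the 4 that did not were Zfp637 with Zfp239, Zfp287 with Zfp286, Zfp236 with Zfp516 and Zfp182 with Zfp300. Zfp287 had its start inside the boundary at 62725001 on chromosome 11 and Zfp286 lay 1.95 kb beyond its opposite edge.

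At the other extreme, 10 of the 364 genes (2.75%) were the only protein-coding gene with a midpoint in their domain, where 3.55% of all protein-coding genes were. They were Zfp281, Zfp438, Zfp462, Zfp516, Zfp521, Zfp536, Zfp608, Zfp618, Zfp638 and Zfp703, none of them in a cluster, and several are known as regulators of development. Zfp521 and Zfp608 lay alone in domains of 1600 and 2350 kb on chromosome 18. A boundary stood whole inside 5 of the 364 genes (1.37%), where 3.49% of all protein-coding genes held one. These were Zfp536 (456 kb long), Zfp407 (382 kb), Zfp950 (87.005 kb), Zfp982 (72.95 kb) and Zfp946 (32.5 kb).

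The list of genes drawn up for the repression of retroviruses and for imprinting had no member near a boundary. The 11 genes of that list lay at distances of 23.8 to 1257 kb with a median of 213 kb. Zfp57, which protects the methylation of imprinting control regions, on chromosome 17, had a domain of 475 kb and lay 201 kb from its nearest boundary. Zfp445, its partner in that role, lay 213 kb away on chromosome 9, with Zfp660 and Zfp105 in its domain. Zfp809, which silences retroviruses that prime from proline tRNA, lay 221 kb away, and Zfp932, which binds endogenous retroviruses in mouse ESCs, 288 kb. Zfp819, Zfp568 and Zfp87 were closer, at 31.7, 46.7 and 23.8 kb. The list also holds Zfp69, known from diabetes crosses in mice, at 273 kb. The 0 of 11 stands beside 18.3% of all protein-coding genes, was not tested against it, and comes from a short list.

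Of the 8 regulators of the stem cell state, 0 were near, a count too small to set apart from the 18.3% of all protein-coding genes. Zfp207, which guides chromosomes at mitosis and has been tied to pluripotency, lay 16.4 kb away and Zfp462, which limits the expression of lineage genes in ESCs, 19.5 kb. Zfp217, Zfp64, Zfp706 and Zfp281 followed at 33.6, 69.4, 92.6 and 99.9 kb. Zfp281, which acts in the exit from naive pluripotency, was the only protein-coding gene of its 225 kb domain on chromosome 1. Zfp219 and Zfp296 lay 329 and 427 kb away in domains with 34 and 160 protein-coding genes. Zfp609, whose protein binds the cohesin loader NIPBL in mouse neural cells, had a domain of 1000 kb and lay 172 kb from its nearest boundary, and its paralog Zfp608 lay 913 kb from one.

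Among 15 genes known from development, 3 were near, about the 18.3% of all protein-coding genes. Zfp467, which acts in the choice between fat and bone, and Zfp24, needed for myelination, each ended inside a boundary, and Zfp110, whose protein binds the p75 neurotrophin receptor, lay 9.76 kb from one. Zfp488, of the oligodendrocyte lineage, lay 17.1 kb away, Zfp703 18.5 kb and Zfp516, which activates genes of brown fat, 19.7 kb. Zfp536, a repressor of neuronal differentiation, had both ends outside boundaries, 31.98 kb at the nearest, although 1 boundary lay within its body. Zfp503 and Zfp423 lay 83.96 and 86.8 kb away, Zfp541, Zfp335 and Zfp369 between 112 and 127 kb, and Zfp148, Zfp750 and Zfp521 between 271 and 652 kb.

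Of the 4 genes that act on RNA or protein, 3 were near, where 18.3% of all protein-coding genes were. The list is short and hand-picked, and the count was not tested. Zfp36, which encodes tristetraprolin, a factor that speeds the decay of AU-rich mRNAs, lay whole inside the boundary at 28375001 on chromosome 7, together with ends of Med29, Paf1 and Samd4b. Zfp622, whose yeast counterpart matures the large ribosomal subunit, lay whole inside the boundary at 25975001 on chromosome 15. Zfp91, a ubiquitin ligase, lay 3.88 kb from a boundary on chromosome 19, and Zfp598, which marks collided ribosomes, 17.98 kb from one.

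**Figure D5:**
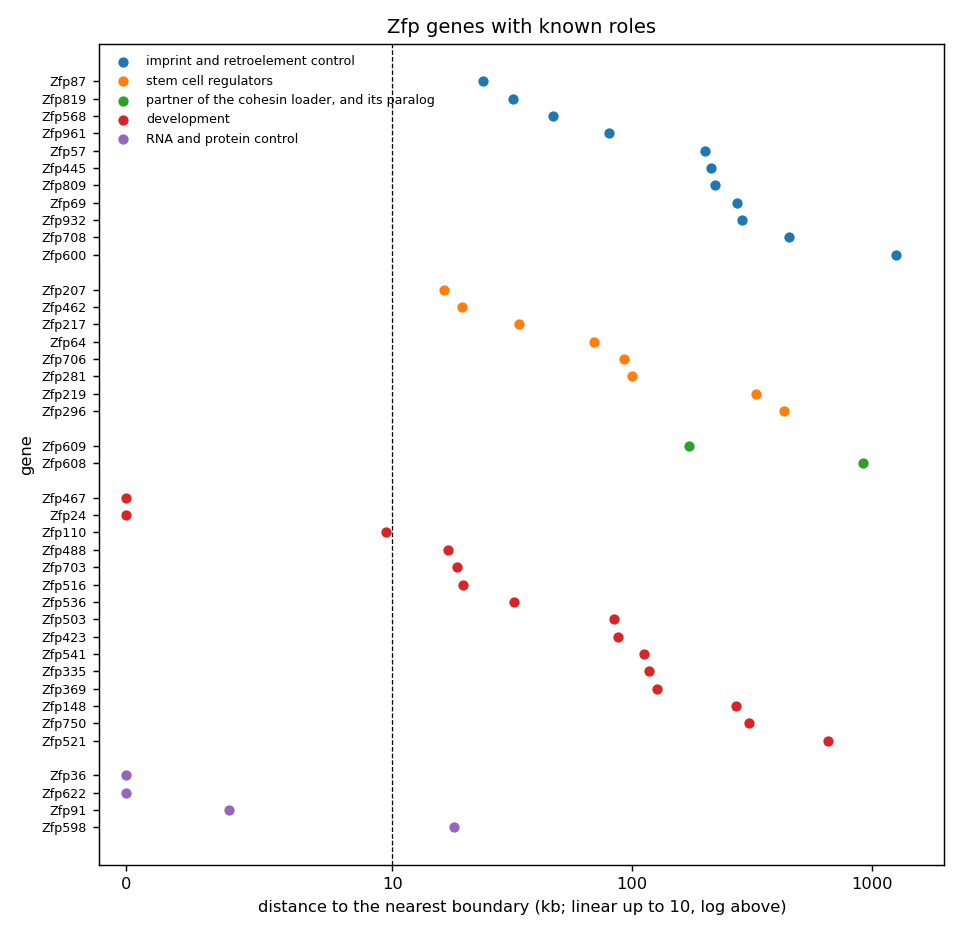
Distance (kb, linear up to 10 and logarithmic above) from the nearest end of each of 40 Zfp genes with known or proposed roles to the nearest boundary, grouped by role and sorted within each group, with a dashed line at 10 kb. The points on the left of the line are Zfp467, Zfp24, Zfp110, Zfp36, Zfp622 and Zfp91.

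The 49 near genes stood at 41 boundaries, of which 7 had more than 1 of them. Besides those already named, Zfp663 and Zfp334 shared the boundary at 165375001 on chromosome 2. Of the 41, 17 also held an end of a protein-coding gene outside the family and 24 did not. No like count over all boundaries is given here. Some of the 41 held housekeeping genes. At 95025001 on chromosome 3 the proteasome gene Psmd4 had its start inside, and the start of Zfp687 lay 9.05 kb away. At 85075001 on chromosome 8 Dhps, Wdr83, Wdr83os and Man2b1 each had a 5′ or 3′ end inside, and Zfp791 lay 7.17 kb away. In others another finger gene was the neighbour, as with Zscan18 beside Zfp329 and Zkscan17 beside Zfp867. Genes that stood alone in their surroundings and had an end inside a boundary with no end of another protein-coding gene were Zfp648, Zfp770, Zfp267, Zfp326, Zfp422, Zfp788, Zfp941, Zfp386, Zfp169 and Zfp622. Zfp341, with the CTCF core shown above, shared its boundary at 154600001 on chromosome 2 with an end of Pxmp4. Zfp334, with the NRF1 core shown above, shared its boundary with an end of Ocstamp. The remaining near genes were Zfp120, Zfp236, Zfp612, Zfp618, Zfp637, Zfp647, Zfp787, Zfp839, Zfp853, Zfp182, Zfp367 and Zfp449.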

How the data were processed

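Micro-C libraries of RAD21-dTAG mouse cells were made by the authors, and the pooled DMSO-treated ESC libraries gave the boundary list used here. Per the submitters' processing notes, BWA 0.7.17 and Juicer 1.22.01 were used with build mm10. For the boundary caller, no name or threshold was given in the sources used here. The deposited list holds only start and end positions, per the file itself, and other values are absent from it. Genes came from RefSeq GRCm38.p6. The 345 genes of scaffolds, 110 of them protein-coding and none a numbered Zfp gene, break the sorted order of positions within a chromosome, and were left out. Positions are counted from 1. Strand came from the promoter table, which covers 17273 of the protein-coding genes used and no gene of chromosome 18.

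The members and lists were chosen with earlier results of these data known. No chance test was run. Counts stand beside the same counts over all protein-coding genes, with exact Clopper-Pearson intervals at 95%. Named genes were those with listed roles, the outer genes of clusters, near genes, the farthest genes, those just inside and outside 10 kb, and genes beside boundaries within clusters. The motif list was shortened to motif cores after longer forms had been searched, and it and the genes alone in their domain were chosen after the data were seen, as were the 6 printed promoters. Finger counts per protein were planned but not made, because no protein sequences were used here. Distances and clusters were tested on simulated data. Mappability of the arrays was not analysed here. Scripts ran in Python 3.11.15 with pandas 2.3.3, numpy 2.4.6, matplotlib 3.10.9 and scipy 1.17.1.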

Additional observations from a re-analysis of the deposited data

How the results depend on the processing

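No paired analysis was possible because the list pools its libraries and no result comes from a test, and for the same reason no library could be left out. Of 29 values recomputed under the alternatives, 22 stayed within 1.5 times the reported count or, for the median distance, within its binomial interval of 98.2 to 140.9 kb. The share of Zfp genes near a boundary was below that of all protein-coding genes in all 10 alternatives for that count, by differing amounts. These alternatives are not independent, since they largely reuse the same genes and the same boundaries. With scaffold genes kept, the Zfp count was the same 49 of 364. Counted by gene midpoint the share was 37 of 364 (10.2%, interval 7.26 to 13.7), close to the 11.2% of all protein-coding genes. By gene start alone the share was 10.6% (interval 7.36 to 14.6), beside 12.2%. Another of the 10 compares unlike loci: with neighbours under 100 kb apart merged, 41 of 204 Zfp loci were near (20.1%). The share of 2768 loci of all genes, which hold more genes each, was 49.2%. With a window of 50 kb the count near was 111 in place of 49, 58 in place of 24 in clusters and 53 in place of 25 outside them. With the gene start only it was 32 of 302 genes, and the median distance was 143 kb in place of 119 kb. Among genes of up to 10 kb it was 5 of 54 (9.26%), close to the 11.96% of all protein-coding genes of that length. With a minimum of 5 members, 10 of 16 clusters held a boundary, against 17 of 33. The alternative limited to proteins with at least 3 fingers was not run, as no protein sequences were used here. A single unscored list gives no stricter threshold, and depth behind its boundaries is unknown.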

Other observations

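Other families of finger genes were counted by the same rule after the results above had been seen, with no test. Of 40 numbered Zbtb genes, which pair fingers with a BTB domain, 8 were near a boundary (20.0%, exact interval 9.05 to 35.6), with a median distance of 53.8 kb, where 18.3% of all protein-coding genes were near and their median was 98.9 kb. Among 16 Zscan genes 4 were near, among 11 Zkscan genes 3 and among 14 Prdm genes 4. Of 17 Klf genes only Klf8 was near, and of the 30 Zfp genes with a letter after the digits only Zfp33b and Zfp119b. A domain with at least 1 numbered Zfp gene held 11 of the 16 Zscan genes, 14 of the 30 Zfp genes with a letter, 4 of the 11 Zkscan genes, 18 of the 68 Trim genes, 5 of the 40 Zbtb genes and 0 of the 14 Prdm and 17 Klf genes, against 2459 of all 21153 protein-coding genes outside the family (11.6%). Of 68 Trim genes, which encode proteins of the tripartite motif family, 9 were near (13.2%).

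The 19 domains with at least 5 numbered Zfp genes also held other protein-coding genes. Of these, 137 in 3 domains were vomeronasal receptor genes and 76 in 14 domains had only a Gm or LOC number. Neither count was set against the same class over all protein-coding genes, and enrichment in these domains was not tested. The annotation used here does not say how many of the unnamed genes encode fingers.

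Among neighbouring Zfp genes with known strands and no overlap, 7 pairs had starts facing away from each other within 10 kb. They included Zfp944 with Zfp758, 0.002 kb apart, Zfp942 with Zfp943, 0.056 kb apart, and Zfp784 with Zfp580, 0.073 kb apart. Pairs whose 5′ ends overlap, such as Zfp786 with Zfp398, and pairs with a gene of unknown strand were not counted. Of the 7, Zfp566 with Zfp260 was the only pair with its starts inside a boundary, and the starts of the other 6 lay 36.5 to 221 kb from one.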
